A study of Mus musculus with 49 samples.

Results

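The family described here is the platelet-derived growth factor (PDGF) system of the mouse urinary bladder, its receptor genes Pdgfra and Pdgfrb and its ligand genes Pdgfa, Pdgfb, Pdgfc and Pdgfd. These 6 genes were listed by name, with their earlier results on these arrays in view. Each is represented by a single-gene probe set chosen by its mean signal over all arrays, the highest of that gene's sets, so levels over all arrays are given as a description. They are 6 of the 18193 genes with such a probe set, and all 6 were among the 14624 genes kept after a filter on dim signals, lying above the 40th percentile of their array on 49 of 49 arrays. The family holds 14 probe sets in all, and the 8 not used serve as a check.

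Whole bladders came from female C57Bl/J mice, with no pooling, and each of the 49 Mouse430_2 arrays holds the RNA of 1 mouse. Arsenate, an inorganic pentavalent arsenic salt, was given in the drinking water for 12 weeks, with harvest at 155 days of age, or for 1 week, with harvest at 76 days of age. Each harvest had groups at 0, 0.5, 2, 10 and 50 ppm, where 0 ppm is water without arsenate, with 5 mice a group except 4 at 0.5 ppm and 1 week. Labels of mice treated alike all begin with the same number, so dose and whatever that number stands for cannot be told apart. Between harvests age, exposure time and the harvest itself differ together.

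The tissue label was checked against defining genes of the bladder wall. Upk1b, Upk2 and Upk3a of the superficial urothelium, Krt5 of the basal urothelium and Myh11, Acta2 and Des of smooth muscle lay between the 98.6th and the 100th percentile of all probe sets. Signals are linear intensities scaled by the submitters, whose trimmed mean per array lay between 500.003 and 500.004, and array medians spanned 0.458 on the log2 scale. Levels below are log2(signal + 16), changes are log2 differences ± SE from limma, and a gene is called where its p, adjusted over all 14624 genes, is under 0.05. A level of 1 gene is not set against that of another, because probe sets differ in brightness. RNA of a whole organ was measured, so fewer cells of a type and less RNA per cell cannot be told apart. Transcripts of liver, 5 markers led by Alb, were also present and moved with harvest and dose, with a mean log2 level of 6.96 in water at 12 weeks, against 9.57 in water at 1 week.

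PDGF ligands are secreted as disulphide-linked dimers and pair receptor chains on the target cell. The paired receptors are tyrosine kinases that phosphorylate each other and then dock adaptors and enzymes such as phosphatidylinositol 3-kinase, Src family kinases, phospholipase C gamma and the phosphatase Shp2. In many organs the alpha receptor marks fibroblasts and interstitial cells, among them interstitial cells of the bladder wall, while the beta receptor marks pericytes, vascular smooth muscle and other stromal cells. Pdgfb made by endothelium draws pericytes to vessels, and Pdgfc and Pdgfd are released as latent proteins that a protease must cleave.

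The promoter windows of Pdgfra, Pdgfd and Pdgfc are shown because Pdgfd and Pdgfc were the ligands that varied with Pdgfra from bladder to bladder, as the correlations describe. They are RefSeq sequences of build GRCm38.p6, 250 bases before to 50 bases after the annotated start, written 5′ to 3′ along the gene, with motif matches in capitals.
Pdgfra (chr5:75152001-75152300, plus strand): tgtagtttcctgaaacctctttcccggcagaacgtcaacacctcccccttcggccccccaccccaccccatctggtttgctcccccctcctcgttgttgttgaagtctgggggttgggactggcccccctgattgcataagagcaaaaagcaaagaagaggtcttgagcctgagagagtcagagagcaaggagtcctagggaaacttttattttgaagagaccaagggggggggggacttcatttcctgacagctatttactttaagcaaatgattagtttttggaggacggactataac
Pdgfd (chr9:6168236-6168535, plus strand): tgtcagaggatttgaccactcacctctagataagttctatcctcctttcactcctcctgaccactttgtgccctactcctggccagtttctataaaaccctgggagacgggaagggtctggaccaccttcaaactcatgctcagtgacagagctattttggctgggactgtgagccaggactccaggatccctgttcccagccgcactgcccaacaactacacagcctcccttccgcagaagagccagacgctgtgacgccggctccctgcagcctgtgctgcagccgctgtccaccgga
Pdgfc (chr3:81036166-81036465, plus strand): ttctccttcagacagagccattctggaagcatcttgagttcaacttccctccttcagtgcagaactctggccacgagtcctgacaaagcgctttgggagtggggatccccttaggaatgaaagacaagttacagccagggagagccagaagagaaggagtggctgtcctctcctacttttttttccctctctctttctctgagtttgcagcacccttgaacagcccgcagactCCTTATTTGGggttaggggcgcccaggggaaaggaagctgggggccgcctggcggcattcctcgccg
Both strands were searched for EGR1 (GCGNGGGCG), SP1 (GGGCGG) and the CArG box of the serum response factor SRF. The capitals in the Pdgfc window mark a CArG box, a motif found in 1.63% of the 32851 promoter windows of the same length. The Pdgfra and Pdgfd windows held no match to the 3 motifs. The 2 listed windows of Pdgfa held 1 and 2 matches to SP1, a motif found in 35.7% of all windows. EGR1, present in 5.55% of all windows, matched none of the 5 windows searched, which are those of Pdgfra, Pdgfd, Pdgfc and Pdgfa. Their GC content was 51% for Pdgfra, 56.7% for Pdgfd, 55% for Pdgfc and 67% and 73.3% for Pdgfa. Pdgfrb and Pdgfb windows are not shown.

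Pdgfrb, the beta receptor, was the member that moved most. After 1 week its level was lower at 0.5 ppm and at 10 ppm than in water, to 0.544-fold and 0.587-fold, and in water-drinking mice it was lower at 12 weeks than at 1 week, to 0.484-fold. No dose moved it past the test at 12 weeks. The change at 1 week did not follow the order of the doses.

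At 0.5 ppm and 1 week the 4 arrays had Pdgfrb levels of 10.97, 10.87, 10.93 and 10.91, against 11.86, 11.62, 11.91, 11.66 and 11.94 in water. Every array at this dose lay below every water array. The change was -0.88 ± 0.133 (adjusted p = 0.00689), with the smallest p-value of the 14624 genes. At 10 ppm the levels were 11.20, 11.07, 10.91, 11.11 and 10.86, again without overlap with water, and the change was -0.77 ± 0.126 (adjusted p = 0.00479), the fifth-smallest p. At 2 ppm the levels were 10.83, 11.17, 11.30, 11.36 and 11.76, with 4 of 5 arrays below the lowest water array. This change of -0.51 ± 0.126 was not called (adjusted p = 0.434), although its 95% interval ran from -0.77 to -0.26. The arrays at 11.30, 11.36 and 11.76 had an RNA integrity number of 7.2. They were the only arrays of the series with a recorded number under 8. The size of the 2 ppm change without them is not reported here. At 50 ppm the levels were 11.37, 11.66, 11.76, 11.70 and 11.20, overlapping water, and the change was -0.26 ± 0.126 (adjusted p = 0.43). The lowest arsenate dose and the 10 ppm dose stood apart from water, and the highest dose was closest to it. The share of all genes without overlap is not reported here for 0.5 or 10 ppm.

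**Figure D1:**
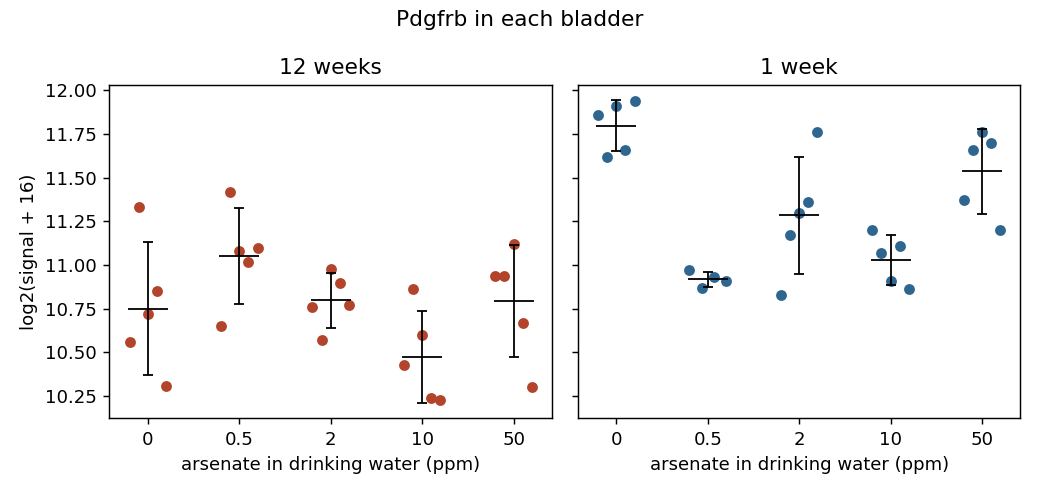
Pdgfrb level, log2(signal + 16), in every bladder (points) with the group mean and SD (black), by arsenate dose in ppm, 12 weeks on the left and 1 week on the right. The 0.5 and 10 ppm arrays of 1 week lie wholly below the water arrays of 1 week, and the 12-week groups overlap.

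Pdgfrb was the 1 member of 6 called at 0.5 ppm and 1 week, where 0.0479% of all genes were called, 7 in number and all lower. The other 6 were Tmem200c, Fbxl7, Hspa1a, Ppp1r3c, Ank1 and Ttc19. It was also the 1 member called at 10 ppm and 1 week, where 0.78% of genes were called, and the 1 member called by the test for any dose at 1 week (adjusted p = 0.00322, with 1.77% of genes called). At 2 ppm and 1 week limma called 0 members and 0% of genes, while 1 member and 867 genes had an unadjusted p under 0.05. At 50 ppm and 1 week 0 members were called against 0.335% of genes, and 3 members and 1689 genes had an unadjusted p under 0.05. The dose trend of 1 week called 0 members against 0.267% of genes, with 0 members and 1421 genes at an unadjusted p under 0.05. For Pdgfrb its slope was -0.05 ± 0.0487 per dose step (adjusted p = 0.811). The 4 doses of a harvest share their water arrays, so their changes are not independent.

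The other Pdgfrb probe set, 1417148_at, is dimmer, with a mean level of 8.53 against 11.05 for the one used, and correlated with it at r = 0.75 over the 49 arrays. Tested with all single-gene probe sets, it had changes of -0.58 at 0.5 ppm (adjusted p = 0.269) and -0.53 at 10 ppm (adjusted p = 0.139) after 1 week. Its group means were 8.32 at 0.5 ppm and 8.37 at 10 ppm, against 8.90 in water. The direction was that of the probe set used, and neither change was called.

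At 12 weeks the Pdgfrb levels were 10.56, 11.33, 10.72, 10.85 and 10.31 in water. They were 10.65, 11.42, 11.08, 11.02 and 11.10 at 0.5 ppm and 10.76, 10.57, 10.98, 10.90 and 10.77 at 2 ppm. At 10 ppm they were 10.43, 10.86, 10.60, 10.24 and 10.23, and at 50 ppm 10.94, 10.94, 11.12, 10.67 and 10.30. All groups overlapped. The changes ran from -0.28 ± 0.166 at 10 ppm (95% interval -0.62 to 0.06) to 0.30 ± 0.166 at 0.5 ppm (-0.04 to 0.64).

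The order of the 10 group means put Pdgfrb highest in water at 1 week (11.80 ± 0.147, SD, n = 5), then at 50 ppm and 2 ppm of 1 week, and lowest at 10 ppm and 12 weeks (10.47 ± 0.264, SD, n = 5). Of the 9 steps between neighbours in this order, 7 were smaller than the pooled SD of 0.254. The exceptions were the first and the last, 0.26 between 50 ppm and water at 1 week and 0.277 between 10 ppm and water at 12 weeks. For each of the other 5 members all 9 steps were smaller than the pooled SD.

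Pdgfra, the alpha receptor, was not called in any of the 18 comparisons as fitted. After 1 week its change was -0.18 ± 0.168 at 0.5 ppm, 0.00 ± 0.158 at 2 ppm, -0.02 ± 0.158 at 10 ppm and 0.02 ± 0.158 at 50 ppm, and the widest of the 4 intervals ran from -0.52 to 0.17. The water arrays of 1 week lay close together, between 10.79 and 10.91, and each dose overlapped them. At 12 weeks and 0.5 ppm the Pdgfra levels were 11.58, 10.78, 10.88, 10.96 and 11.11, against 10.86, 10.39, 10.22, 10.52 and 10.32 in water. All 5 arrays lay above the water mean, and the 1 at 10.78 was the only one below the highest water array. The change was 0.60 ± 0.183 (adjusted p = 0.0881, interval 0.22 to 0.97). At 50 ppm and 12 weeks the change was 0.38 ± 0.183 (adjusted p = 0.204), and the test for any dose at 12 weeks gave an adjusted p of 0.0846. Other settings called them: at 0.5 ppm array weights (adjusted p = 0.0483), and for any dose array weights (0.0439), 1 fit for all arrays (0.0417) and the spiked poly-A controls as a covariate (0.00524). Group means ran from 11.06 at 0.5 ppm and 12 weeks to 10.42 at 10 ppm and 12 weeks, a span of 0.64. The other Pdgfra probe sets, 1421916_at and 1438946_at, were at 0.35 and 0.13 at 0.5 ppm and 12 weeks. Among all single-gene probe sets their adjusted p was 0.518 and 0.819 there, and 0.595 and 0.651 for any dose at 12 weeks. The sets disagreed at 50 ppm and 1 week: 1438946_at was lower (-0.65, adjusted p = 0.0432), while 1421916_at was at 0.63 (adjusted p = 0.234). With the one used, r was 0.346 for 1438946_at and 0.685 for 1421916_at.

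**Figure D2:**
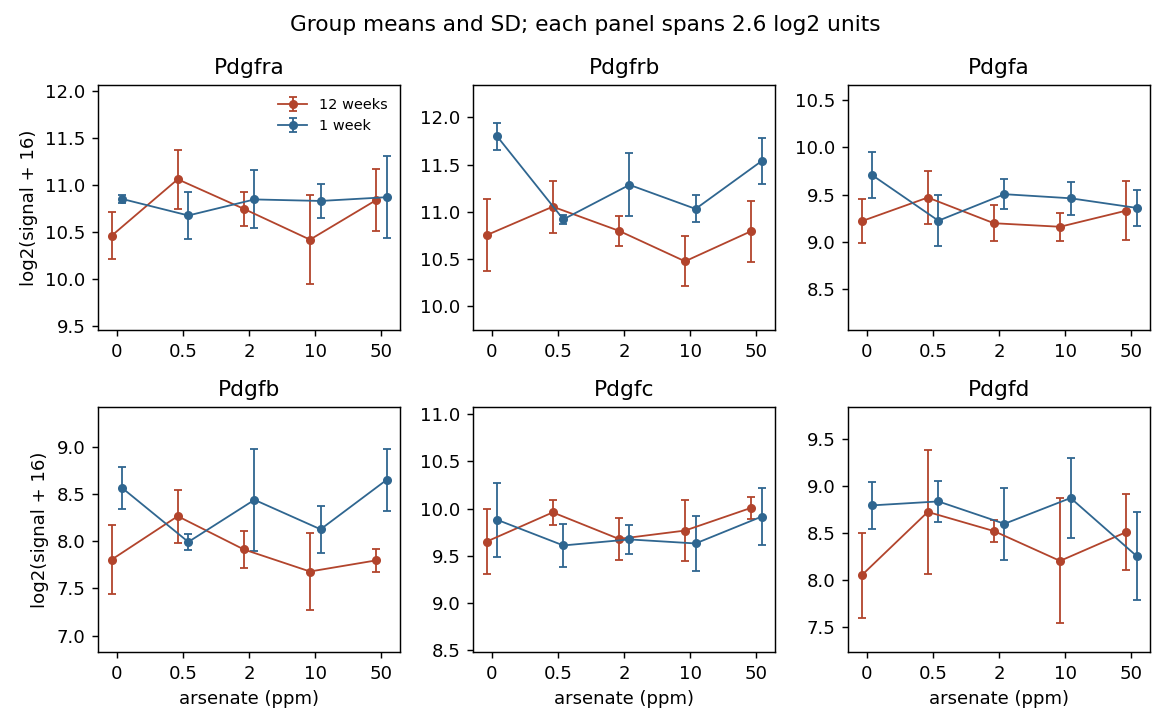
Mean and SD of log2(signal + 16) for the 6 members by arsenate dose in ppm, 12 weeks in red and 1 week in blue, each panel spanning the same number of log2 units. Pdgfrb in water at 1 week, at 11.80, stands above all other Pdgfrb groups, and no member changes steadily with dose.

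The ligand Pdgfa, a chain that binds the alpha receptor, was called in no dose comparison. At 0.5 ppm and 1 week its levels were 8.84, 9.46, 9.28 and 9.31, against 9.59, 9.95, 9.65, 9.96 and 9.39 in water, with 3 of 4 arrays below the lowest water array. The change was -0.48 ± 0.137 (adjusted p = 0.164). At 50 ppm and 1 week it was -0.35 ± 0.129 (adjusted p = 0.265), with 5 of 5 arrays below the water mean. The other Pdgfa probe set, 1449187_at, had -0.45 and -0.35 in these comparisons (adjusted p = 0.168 and 0.134), although its r with the one used was 0.292. At 12 weeks the changes of Pdgfa lay between -0.06 ± 0.148 at 10 ppm and 0.25 ± 0.148 at 0.5 ppm.

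Pdgfb, the chain that binds both receptors, was nearest to the pattern of Pdgfrb. At 0.5 ppm and 1 week its levels were 7.93, 7.99, 8.11 and 7.94, against 8.60, 8.64, 8.88, 8.32 and 8.38 in water. The groups did not overlap, and the share of all genes without overlap is not reported here. The change of -0.57 ± 0.206 was not called (adjusted p = 0.261), with rank 547 by p among all genes tested. At 10 ppm and 1 week it was -0.44 ± 0.194 (adjusted p = 0.242), with 5 of 5 arrays below the water mean, and at 50 ppm 0.09 ± 0.194. At 12 weeks and 0.5 ppm the levels were 7.88, 8.27, 8.45, 8.13 and 8.60, against 7.70, 8.33, 7.56, 8.02 and 7.43 in water, with all 5 arrays above the water mean and overlap (0.46 ± 0.185, adjusted p = 0.175). The second Pdgfb probe set, 1450413_at, was at -0.12 at 0.5 ppm and 1 week and 0.05 at 0.5 ppm and 12 weeks, and its r with the one used was 0.175.

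Pdgfc, a latent ligand of the alpha receptor, had the smallest span of group means, 0.399, from 9.61 at 0.5 ppm and 1 week to 10.01 at 50 ppm and 12 weeks. Its levels at 50 ppm and 12 weeks were 10.02, 10.20, 9.97, 9.95 and 9.90, against 9.38, 9.91, 9.96, 9.81 and 9.20 in water. All 5 arrays lay above the water mean, and the change of 0.36 ± 0.148 was not called (adjusted p = 0.137). The probe set used, 1449351_s_at, has a suffix that Affymetrix gives to sets able to match several transcripts. The second one, 1419123_a_at, was at 0.26 in this comparison, and its r with the one used was 0.418. At 50 ppm and 1 week the second set was at -0.37 (adjusted p = 0.221 among all single-gene probe sets), against 0.03 for the one used.

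Pdgfd, a latent ligand of the beta receptor, varied most from array to array, over a 6.88-fold range of signal. At 50 ppm and 1 week its levels were 8.51, 7.44, 8.38, 8.37 and 8.58, against 8.70, 9.23, 8.75, 8.66 and 8.63 in water. The groups did not overlap, and the share of all genes without overlap is not reported here. The change of -0.54 ± 0.209 was not called (adjusted p = 0.291), with rank 794 by p among all genes tested. At 12 weeks and 0.5 ppm the levels were 9.82, 8.15, 8.33, 8.71 and 8.61, against 8.42, 7.56, 7.63, 8.09 and 8.56 in water (0.67 ± 0.283, adjusted p = 0.193). All 5 lay above the water mean. The second Pdgfd probe set, 1426319_at, was at -0.18 at 50 ppm and 1 week and 0.78 at 0.5 ppm and 12 weeks (adjusted p = 0.817 and 0.144).

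Over the family, arsenate after 12 weeks gave 0 called members at every dose, while the shares of genes called were 0.527% at 0.5 ppm, 0.0137% at 2 ppm, 0.335% at 10 ppm and 4.06% at 50 ppm. The dose trend of 12 weeks called 0 members and 5.26% of genes, and the test for any dose 0 members and 4.94% of genes. At an unadjusted p under 0.05 the members numbered 4 at 0.5 ppm, 0 at 2 ppm, 0 at 10 ppm and 2 at 50 ppm. Of the 14624 genes, 2778, 1449, 2347 and 3528 passed at these doses. The trend had 0 members and 3294 genes at that level, and the test for any dose 3 members and 3598 genes. At 0.5 ppm all 6 members had a higher mean than water at 12 weeks, with a median of 0.39 against 0.00 over all genes, and after 1 week 5 of 6 had a lower mean, with a median of -0.38 against 0.01. At 50 ppm and 12 weeks 5 of 6 had a higher mean (median 0.23 against -0.04), and at 10 ppm 2 of 6 did (median -0.05 against -0.03). The control transcripts spiked in with poly-A tails averaged 10.30 at 0.5 ppm, 9.65 at 10 ppm and 9.84 at 50 ppm, against 10.71 in water, at 12 weeks. At 0.5 ppm and 12 weeks all 10 fibroblast markers (median 0.216), all 7 macrophage markers (0.134) and 7 of 8 endothelial markers (0.379) had a higher mean, all 7 superficial urothelium (-0.18) and all 5 mesothelium markers (-0.232) a lower one, and 0 were called. The part of these markers and controls in the members' values was not tested.

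**Figure D3:**
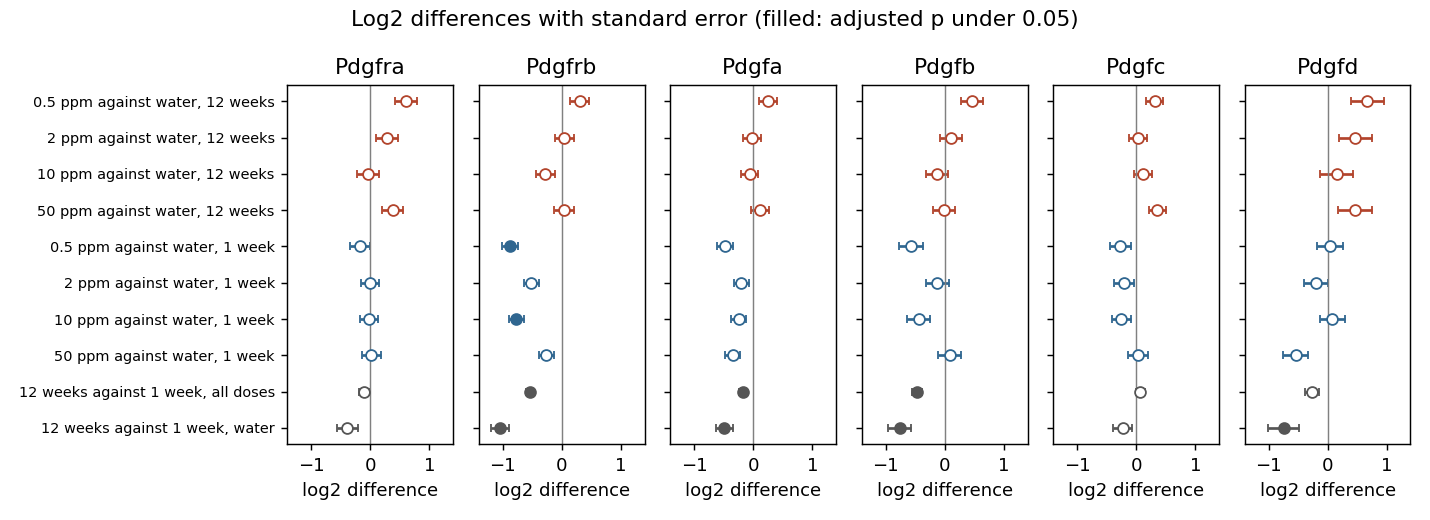
Log2 difference ± SE of the 6 members for each dose against water at 12 weeks (red) and 1 week (blue), and for 12 weeks against 1 week (grey). Filled points have an adjusted p under 0.05: Pdgfrb at 0.5 and 10 ppm of 1 week, and Pdgfrb, Pdgfa, Pdgfb and Pdgfd between harvests.

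The effect of 0.5 ppm itself was compared between harvests, and this test called 3 of 6 members, with 4.61% of all genes called. The effect of 0.5 ppm was higher at 12 weeks than at 1 week by 1.18 ± 0.223 for Pdgfrb (adjusted p = 0.00215), by 1.03 ± 0.281 for Pdgfb (adjusted p = 0.0263) and by 0.73 ± 0.205 for Pdgfa (adjusted p = 0.0292). For Pdgfra it was 0.77 ± 0.261 (adjusted p = 0.0748). Among all single-gene probe sets the second Pdgfrb set had 1.01 (adjusted p = 0.0254), that of Pdgfa 0.51 (adjusted p = 0.105) and that of Pdgfb 0.16 (adjusted p = 0.858), so the calls of Pdgfa and Pdgfb were not made by their second sets. At 2 ppm the same test called 0 members and 0% of genes, with 1 member and 869 genes at an unadjusted p under 0.05. It called 0 members at 10 ppm, where 1.37% of genes were called, and 0 at 50 ppm, where 7.36% were called. An unadjusted p under 0.05 was found for 1 member and 2038 genes at 10 ppm, and for 2 members and 3673 genes at 50 ppm. The closest at 50 ppm was Pdgfd (1.00 ± 0.368, adjusted p = 0.0814). These differences use the same water arrays as the contrast of the water groups. For Pdgfa and Pdgfb the call was lost in 6 of 19 fits that left out 1 array each, with adjusted p up to 0.108 and 0.0613. Cell type markers moved in the same test. All 10 fibroblast (median 0.381, 2 called) and all 8 endothelial markers (median 0.449, 2 called) had a higher difference, as had 6 of 8 mural cell markers (median 0.466, 1 called). All 7 superficial urothelium (median -0.382, 1 called), all 6 basal urothelium (median -0.626, 0 called) and all 5 mesothelium markers (median -0.543, 1 called) had a lower one. Their part in the members' differences was not tested.

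Between harvests, 3 members were lower at 12 weeks than at 1 week over all doses, where 37.7% of all genes were called. Pdgfrb ran from 10.23 to 11.42 with a median of 10.77 on the 25 arrays of 12 weeks, and from 10.83 to 11.94 with a median of 11.25 on the 24 arrays of 1 week. It fell by 0.54 ± 0.0693 (adjusted p = 3.12e-08), and 24 of 25 arrays lay below the 1-week mean. Pdgfb ran from 7.02 to 8.60 with a median of 7.88 at 12 weeks, and from 7.72 to 9.03 with a median of 8.34 at 1 week. It fell by 0.46 ± 0.0873 (adjusted p = 3.89e-05), lower in 23 of 25 arrays, while its second probe set was at 0.03 (adjusted p = 0.851). Pdgfa fell by 0.18 ± 0.0636 (adjusted p = 0.0251), lower in 18 of 25 arrays. This call of Pdgfa was lost with RNA integrity as a covariate, in a fit without the 2 arrays that lack this number (-0.12, adjusted p = 0.298), without arrays of low integrity (adjusted p = 0.0818) and with the spiked controls as a covariate (adjusted p = 0.18). The call of Pdgfb was lost with the spiked controls as a covariate (-0.38, adjusted p = 0.0804). Pdgfra (-0.11 ± 0.0811), Pdgfc (0.07 ± 0.0734) and Pdgfd (-0.27 ± 0.118) were not called. With that covariate Pdgfra was at -0.48 (adjusted p = 0.00539) and Pdgfd at -0.78 (adjusted p = 0.00204).

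In water alone 4 members were lower at 12 weeks than at 1 week, against 13.4% of all genes called. Pdgfrb fell by 1.05 ± 0.153 (adjusted p = 9.68e-06), with the 5 arrays of 12 weeks, 10.31 to 11.33, all below the 5 of 1 week, 11.62 to 11.94. Pdgfb fell by 0.76 ± 0.193 (adjusted p = 0.00608) and Pdgfa by 0.49 ± 0.14 (adjusted p = 0.0149), each with 4 of 5 arrays below the lowest array of 1 week. Pdgfd fell by 0.74 ± 0.261 (adjusted p = 0.0492), with no overlap. The share of all genes without overlap between the water groups is not reported here. The Pdgfd call was near the threshold: 8 of 10 fits that left out 1 array each lost it, with an adjusted p of up to 0.143. The second probe set of Pdgfrb had -0.67 (adjusted p = 0.00966) and that of Pdgfa -0.44 (adjusted p = 0.0122), while that of Pdgfb had -0.05 (adjusted p = 0.912) and that of Pdgfd -0.18 (adjusted p = 0.708). The water call of Pdgfa was lost in 3 of 10 fits that left out 1 array each, with an adjusted p of up to 0.0561.

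Without both water groups, a contrast added after seeing the data, the 4 arsenate groups of 12 weeks against those of 1 week called 2 members, Pdgfrb (-0.41 ± 0.0777, adjusted p = 5.01e-05) and Pdgfb (-0.39 ± 0.0979, adjusted p = 0.0018), with 32.8% of all genes called. Dose by dose the Pdgfrb difference was 0.13 ± 0.162 at 0.5 ppm, -0.49 ± 0.153 at 2 ppm, -0.56 ± 0.153 at 10 ppm and -0.74 ± 0.153 at 50 ppm. For Pdgfb it was 0.27 ± 0.205, -0.53 ± 0.193, -0.45 ± 0.193 and -0.85 ± 0.193 at the same doses. For both genes the difference was above 0 at 0.5 ppm alone and below 0 at the other 3 doses.

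Over the 49 arrays, with the group means removed, the receptors went with different ligands, each gene taken by the probe set used. Pdgfra varied with Pdgfd (r = 0.819, rho = 0.751, permutation p = 1e-05, the smallest the permutations can give, adjusted p = 0.00015 over 15 pairs). The r was 0.825 at 12 weeks and 0.815 at 1 week, and 0.746 without the 2 arrays farthest from the median. Pdgfrb varied with Pdgfb (r = 0.608, rho = 0.513, permutation p = 0.00011, adjusted p = 0.000825), with 0.546 at 12 weeks, 0.718 at 1 week and 0.617 without 2 arrays. Pdgfra also went with Pdgfc (r = 0.403, rho = 0.396, permutation p = 0.00663, adjusted p = 0.0331, and 0.0352 for rho). However, r was weaker without 2 arrays (0.264), and it was uneven between harvests, 0.212 at 12 weeks against 0.613 at 1 week. The other 12 pairs did not pass, among them Pdgfra with Pdgfrb (r = 0.0576, adjusted p = 0.858). The second probe sets of Pdgfb, Pdgfc and Pdgfd had r of only 0.175, 0.418 and 0.581 with the ones used. Genes outside the family lay closer to Pdgfra (r up to 0.894) and to Pdgfrb (up to 0.79), so such closeness was not particular to these ligands.

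**Figure D4:**
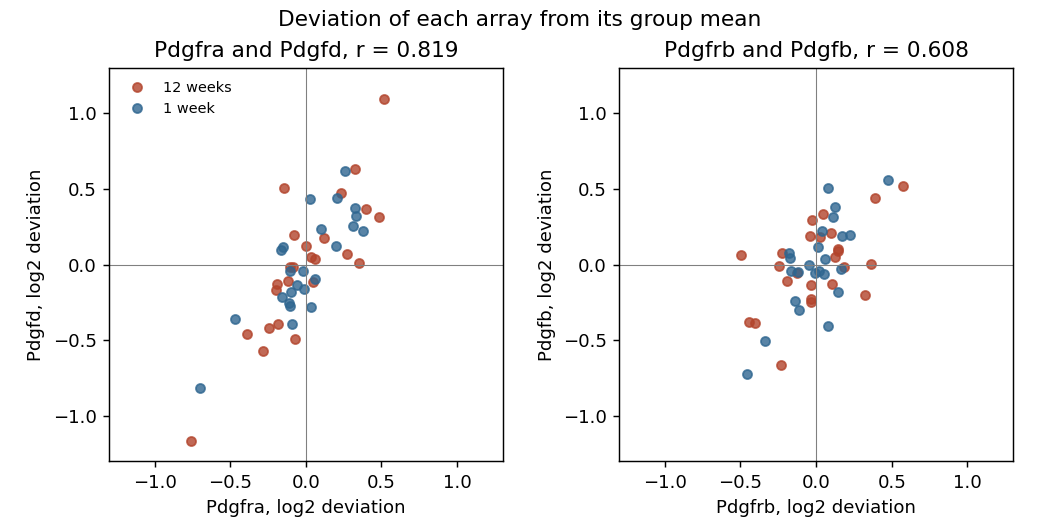
Deviation of each array from its group mean on the log2 scale, Pdgfd against Pdgfra on the left and Pdgfb against Pdgfrb on the right, 12 weeks in red and 1 week in blue. The points rise together in both panels and in both harvests, with r = 0.819 and r = 0.608.

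Markers of the stroma moved with the beta receptor and Pdgfb from array to array. Of 96 relations between the 6 members and 13 marker means or 3 array measures, 12 passed with permutation p-values adjusted over the 96, 8 of them positive. Pdgfb went with mural cell (r = 0.702, rho = 0.615), fibroblast (r = 0.68, rho = 0.537), smooth muscle (r = 0.638, rho = 0.614) and skeletal muscle markers (r = 0.603, rho = 0.594), each with an adjusted permutation p of 0.00048, and with endothelial markers (r = 0.579, rho = 0.506, adjusted p = 0.00645). Without 2 arrays these r were 0.594, 0.576, 0.558, 0.588 and 0.482. Pdgfrb went with fibroblast (r = 0.582, rho = 0.547, adjusted permutation p = 0.00384), endothelial (r = 0.547, rho = 0.487, adjusted p = 0.0139) and mural cell markers (r = 0.503, rho = 0.401, adjusted p = 0.0212, but 0.0934 for rho). Their r without 2 arrays were 0.537, 0.44 and 0.42, and within harvests they ran from 0.487 to 0.629. Pdgfra and Pdgfd were instead low where superficial urothelium markers were high (r = -0.599 and -0.478, rho = -0.534 and -0.439, adjusted permutation p = 0.00173 and 0.0185). They were also low where the poly-A spike level was high (r = -0.484 and -0.461, rho = -0.445 and -0.396, adjusted p = 0.0139 and 0.0307, the second 0.0934 for rho), with r of -0.657 and -0.673 at 12 weeks, against -0.242 and -0.118 at 1 week. Platelets store PDGF, and their markers had r between -0.299 and -0.0393 with the 6 members, none of which passed.

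**Figure D5:**
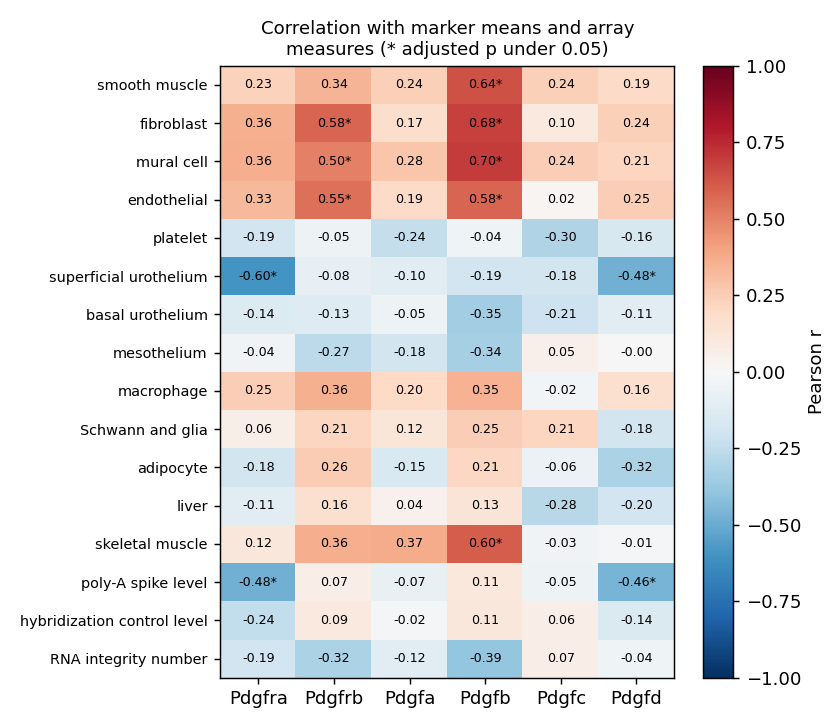
Pearson r between the deviations of the 6 members and those of 13 marker means and 3 array measures, over 49 arrays (47 for the RNA integrity number), with a star where the adjusted permutation p is under 0.05. Pdgfrb and Pdgfb share the warm stromal block, up to 0.702, and Pdgfra and Pdgfd share the cold cells for superficial urothelium and the poly-A spike level.

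Marker lists are given beside the Pdgfrb changes of 1 week. At 0.5 ppm 0 of 8 mural cell markers were called, 7 of 8 had a lower mean and their median was -0.215. For 10 fibroblast markers these were 0, 8 and -0.114, and for 8 endothelial markers 0, 8 and -0.143. The mural cell marker mean ran from 9.38 to 9.59 at 0.5 ppm, against 9.56 to 9.78 in water. The lowest p-values of the mural list belonged to the channel subunit Kcnj8 (-0.45 ± 0.137, adjusted p = 0.186) and the proteoglycan Cspg4 (-0.70 ± 0.253, adjusted p = 0.261). At 10 ppm the medians were -0.155 for mural cell and -0.13 for fibroblast markers, all 11 smooth muscle markers had a lower mean, and 0 of these were called. The test for any dose at 1 week called 1 of 8 mural cell markers (Mcam, adjusted p = 0.0445), 1 of 5 mesothelium markers (Msln, adjusted p = 0.0395) and 3 of 5 liver markers. All 7 superficial and all 6 basal urothelium markers had a higher mean at 0.5 ppm, with medians of 0.196 and 0.247, and likewise at 10 ppm, with medians of 0.0767 and 0.216, and 0 were called. The medians of the 3 measured skeletal muscle markers were -0.459 at 0.5 ppm and -0.468 at 10 ppm, and those of the 5 liver markers were -0.996 and -1.52, larger than the Pdgfrb changes. The mean liver marker level was 8.86 at 0.5 ppm and 8.23 at 10 ppm, against 9.57 in water. The part of cell makeup in the Pdgfrb change was not tested.

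Between harvests, over all doses, all 10 fibroblast markers were called lower at 12 weeks, where 37.7% of all genes were called. Col1a1 was at -1.27 and Col3a1 at -0.70, both fibrillar collagens. The fibroblast mean ran from 12.06 to 13.20 at 12 weeks and from 13.10 to 13.59 at 1 week. Of 8 mural cell markers, Cspg4 (-0.52 ± 0.0997) and Ndufa4l2 (-0.60 ± 0.093) were called lower and Abcc9 and Notch3 higher, with a list median of -0.0454. Of 8 endothelial markers 3 were called lower and 1 higher, and 5 had a lower mean. Of 11 smooth muscle markers 7 were called lower and 10 had a lower mean, with a median of -0.14. Of 6 platelet markers 3 were called lower, among them Pf4 (-0.40 ± 0.0542), and 6 had a lower mean. All 5 liver and all 3 measured skeletal muscle markers were lower as well. Their part in the PDGF changes was not tested.

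Among 9 genes that process or hold PDGF ligands, 0 were called in any dose comparison of 1 week. Sparc, a matrix protein that binds PDGF-B chains, was lower at 12 weeks than at 1 week over all doses (-0.79 ± 0.0588, adjusted p = 1.93e-14), as were Pcsk5, a proprotein convertase (-0.53 ± 0.119), and Plau, urokinase, which can activate PDGF-D (-0.68 ± 0.178). The convertase Pcsk7 was higher (0.12 ± 0.0413). Furin, the convertase that trims PDGF-A and PDGF-B precursors, had a falling dose trend at 12 weeks (-0.13 ± 0.034 per step, adjusted p = 0.0314). The list's median between harvests was -0.01, against 0.01 for all genes.

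Of 24 listed genes of receptor signalling 23 were measured. Stat3, a transcription factor that tyrosine kinases activate, was the 1 called at 10 ppm and 1 week (-0.48 ± 0.11, adjusted p = 0.0379), with 0 called at 0.5 ppm, where Crk (0.47 ± 0.199) and Fyn (-0.28 ± 0.125) had the smallest p. At 50 ppm and 12 weeks Pik3r1, the regulatory subunit of phosphatidylinositol 3-kinase, rose (0.56 ± 0.141, adjusted p = 0.0291) and Slc9a3r1, a scaffold that binds the tail of the PDGF receptor, fell (-0.43 ± 0.114, adjusted p = 0.0338). Between harvests 8 of 23 were called, where 37.7% of all genes were, so the list was called no more often than genes in general. At 12 weeks 7 were higher, among them the adaptor Crk (0.40 ± 0.0938) and the kinase subunit Pik3cb (0.41 ± 0.112), and 1 was lower, the Src family kinase Fyn (-0.32 ± 0.0525, adjusted p = 3.19e-06). Compared between harvests, the effect of 50 ppm differed for 6 of 23, with Pik3r1 higher (0.70 ± 0.197) and Slc9a3r2, Stat5a, Nck2, Plcg1 and Pik3r2 lower.

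Of 12 genes that dampen the receptors 0 were called in the dose comparisons of 1 week. Spry1, an inhibitor of signalling downstream of receptor tyrosine kinases, was lower at 50 ppm and 12 weeks (-0.63 ± 0.148, adjusted p = 0.024) and had a falling trend over dose (-0.20 ± 0.0355 per step, adjusted p = 0.00445). Between harvests Spry2 (-0.41 ± 0.0665) and Spry1 (-0.27 ± 0.0654) were lower at 12 weeks and the ubiquitin ligase Cblb higher (0.47 ± 0.0726). In the 0.5 ppm effect Cbl, the ligase that tags activated receptors, differed between harvests (0.51 ± 0.143, adjusted p = 0.0298), the 1 of 12 called there.

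Of 15 related receptors and growth factors 13 were measured. Pdgfrl, a receptor-like protein without a kinase domain, was at -0.66 ± 0.156 at 0.5 ppm and 1 week without being called (adjusted p = 0.0918), and was lower at 12 weeks than at 1 week (-0.74 ± 0.0795, adjusted p = 4.12e-10). Csf1r, the macrophage receptor of the same kinase class, was lower too (-0.45 ± 0.0473). Of 7 macrophage markers, a list that holds Csf1r itself, 5 were called lower and 6 had a lower mean, where 37.7% of all genes were called. Kit, Csf1 and Pgf were also lower between harvests, and Vegfa higher (0.33 ± 0.0685). At 10 ppm and 12 weeks the lymphatic receptor Flt4 was the 1 of 13 called (-0.64 ± 0.126, adjusted p = 0.0218).

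The genes whose deviations most resembled each member over the 49 arrays, among all 14624, are given as a description; the arrays share scaling and cell makeup. For Pdgfra they were Klhl23 (r = 0.894), Prune2 (0.891) and Msrb3 (0.877), and for Pdgfd Slmap (0.916), Golim4 (0.898) and Oip5os1 (0.897). For Pdgfrb they were Slco2b1 (0.79), Dmwd (0.786) and 2700081O15Rik (0.781), and for Pdgfb the transcription factor gene Foxf1 (0.819), the basement membrane proteoglycan gene Hspg2 (0.795) and the basement membrane collagen gene Col4a2 (0.764). Pdgfa was closest to Trim47 (0.656), Col8a2 (0.617) and Ecscr (0.615), and Pdgfc to Fam160b1 (0.604), Abca8a (0.589) and Nrp2 (0.586). Over the 10 group means Pdgfrb was closest to Wnt9a (0.98), Ada (0.973) and St6galnac6 (0.972), and Pdgfra to Hip1 (0.958), Vcam1 (0.955) and Oxct1 (0.953).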

How the data were processed

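Biotin-labelled RNA of each bladder, from Trizol and Qiagen preparations, was hybridized to Affymetrix Mouse430_2 arrays, per the labels. The deposited values are linear signal intensities per probe set, and GCOS 1.0 is named, per the submitters' processing notes. The sources used here do not give its settings. Of 45101 probe sets, 64 were controls, 34945 had a single gene in the platform annotation, 932 several and 9160 none, and genes were named from single-gene probe sets alone. No 2 arrays held identical values, and pairs of arrays correlated at 0.9184 to 0.9781.

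Signals were taken as log2(intensity + 16), and a gene was kept where 4 or more arrays had it above their own 40th percentile. Dose comparisons were fitted within a harvest, and comparisons between harvests on all 49 arrays, with limma (3.58.1, lmFit, then eBayes with an intensity trend) under R (4.3.3), tables being read with data.table (1.17.8). P-values were adjusted by Benjamini-Hochberg over all 14624 genes. Intervals are 95% intervals from the same fits. The dose trend was a slope over dose ranks, and the test for any dose was limma's moderated F. Correlations used deviations from group means and 1e+05 two-sided permutations within groups. The number of arrays limits the precision, and p-values measure the spread between mice. Python (3.11.15) and matplotlib (3.10.9) made the plots. The steps were tested on simulated data.

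The 6 members, the 4 pathway lists, the 13 marker lists and the tests were chosen with earlier results of these data known, so ranks and counts of the members are descriptions of these arrays. The rule for naming list genes was up to 6 called genes of smallest p in a comparison spoken of, and otherwise the 2 of smallest p given as values. Genes most like a member were the 3 of highest Pearson r. Alternatives were offsets of 1 and 64, quantile normalization, other filters, array weights, 1 fit for all arrays and a replicate block. All single-gene probe sets were also tested together, with the probe set read for each member unchanged. RNA integrity, the poly-A spike and the hybridization control levels served as covariates. In other fits arrays of integrity number under 8 were left out, as was each array in turn and, added later, both water groups. Flt3l, Figf and Plin1 had no single-gene probe set, Myh4 and Mb were below the filter, and some other listed genes are not reported here.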

Additional observations from a re-analysis of the deposited data

Results flagged for a closer look

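Each of the 10 groups of 4 or 5 arrays was checked for each of the 6 members, 60 checks in all. In 5 of them an array stood far from the others of its group, where chance gives about 1 in 20, or 3. The checks share the same 49 arrays and some members vary together, so that chance count is only a rough guide. Pdgfra had a high array at 0.5 ppm and 1 week (replicate 4, 11.05), and Pdgfa had one in water at 12 weeks (replicate 4, 9.62). Pdgfd had 3 such arrays, a low one at 10 ppm and 12 weeks (replicate 4, 7.04), a low one at 50 ppm and 1 week (replicate 2, 7.44) and a high one in water at 1 week (replicate 2, 9.23). The 10 ppm array of 12 weeks was also the lowest of all 49 for Pdgfra and Pdgfb.

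The effect of 0.5 ppm differed between 12 weeks and 1 week by limma's test of the difference itself for Pdgfrb (1.18), Pdgfb (1.03) and Pdgfa (0.73), each higher at 12 weeks.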

How the results depend on the processing

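The calls of Pdgfrb at 0.5 ppm, at 10 ppm and for any dose of 1 week, between harvests and for the harvest difference at 0.5 ppm were kept under every alternative setting. At 0.5 ppm the change ran from -0.903 to -0.863 and at 10 ppm from -0.928 to -0.754. Leaving out replicate 3 of the 0.5 ppm group lost the first of these (-0.861, adjusted p = 0.0573), in a fit that leaves 3 arrays in that group. In every setting Pdgfrb was read from the same probe set. By limma its second set was not called at 0.5 ppm, 10 ppm or for any dose of 1 week (adjusted p = 0.269, 0.139 and 0.0958). That set was called between harvests over all doses (0.0352), in water (0.00966) and for the harvest difference at 0.5 ppm (0.0254). Array weights called 2 members at 0.5 ppm and for any dose of 1 week, 2 at 0.5 ppm and 3 for any dose of 12 weeks, and 1 for the harvest difference at 10 ppm. With quantile normalization 1 member, Pdgfrb, was called for the harvest difference at 0.5 ppm. All arrays in 1 fit called 1 member for any dose of 12 weeks, and the poly-A spike controls as a covariate 2. The RNA integrity number as a covariate called 2 at 10 ppm and 2 for any dose of 1 week, as did leaving out arrays of integrity under 8 for any dose. The covariate fit lacks 2 of the 5 arrays of 10 ppm and 1 week, which have no integrity number. In all 3 the added member was Pdgfb, at -0.733 for 10 ppm. Shares of all genes called in these fits, and in those that leave out 1 array, are not reported here. The counts therefore do not show whether a setting moved the members or genes in general. The cause of the changed calls was not tested.

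Leaving out 1 array at a time gave 0 to 1 called members at 0.5 ppm of either harvest, 1 to 2 for any dose of 1 week and 0 to 1 for any dose of 12 weeks. Between harvests it gave 3 to 4 over all doses, 2 to 4 in water and 1 to 4 for the harvest difference at 0.5 ppm. At 10 ppm of 1 week it stayed at 1, and in the other comparisons at 0. Without water replicate 1 of 12 weeks, Pdgfra was called at 0.5 ppm (0.699, adjusted p = 0.0431). The replicate numbers do not pair the mice, since same-numbered arrays had a median r of -0.000916 at 1 week and 0.00497 at 12 weeks. The replicate block moved no count of called members by more than 1.5 times and lost Pdgfd in water (-0.742, adjusted p = 0.0546), a call lost in 5 of 12 settings. Of 1374 member values under other settings, 1341 stayed on their side of the threshold, most of them uncalled in both fits, while 12 lost a call and 21 gained one, and 0 called values changed sign, while 32 uncalled ones did.

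Groups of 4 or 5 arrays limit these results, and intervals of uncalled changes often reached past 0.5 on the log2 scale. The offset of 16 shrinks changes of dim probe sets. Probe sets of Pdgfra, Pdgfb, Pdgfc and Pdgfd disagreed in some comparisons, and those of Pdgfa correlated at only r = 0.292. Dose and the first label number, like age, exposure time and harvest, cannot be told apart.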
